A study of Mus musculus with 24 samples.

Results

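Lung mRNA was compared between mice lacking both tumor necrosis factor (TNF) receptors and wild-type mice after 24 h of ozone (O3), in the 6 arrays whose titles give that exposure, of 24 arrays in all. The 3 Tnfr-/- animals carried the Tnfrsf1a tm1Imx and Tnfrsf1b tm1Imx alleles on a B6.129S background, and the 3 Tnfr+/+ animals were C57BL/6J. All were male, 6 to 8 weeks old by the study's methods, and breathed 0.3 ppm O3 continuously for 24 h. Each array held total RNA from the left lung homogenate of 1 mouse, so every signal is an average over all lung cell types. Both receptors were disrupted in every cell of the body, and the controls were an inbred strain not described as littermates, so effects of the alleles and of other strain differences cannot be told apart. The other 18 arrays, of both genotypes in air and after 48 h or 72 h of O3, entered the shared fit and are named where they serve as reference.

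TNF signals through TNFR1, encoded by Tnfrsf1a, which is present on most cells and can lead to NF-kB activation or cell death, and through TNFR2, encoded by Tnfrsf1b, which is more restricted to immune and endothelial cells. The pathway drives the mRNA of cytokines, chemokines and adhesion molecules. Inhaled O3 injures the airway and alveolar epithelium and elicits acute inflammation of the lung.

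The arrays were of lung by their defining transcripts. Quantile-normalized signals of Sftpc, a surfactant protein of alveolar type 2 cells, were 30120, 31200 and 32130 in Tnfr+/+ and 30120, 30120 and 30120 in Tnfr-/-, and those of Scgb1a1, the club cell secretory protein, were 27740, 27740 and 27740 against 25290, 27320 and 27320. Array medians before normalization lay between 223 and 247, and correlations of log2 signals were 0.951 to 0.957 within Tnfr+/+, 0.955 to 0.957 within Tnfr-/- and 0.938 to 0.953 between genotypes. A measure of RNA quality separated the genotypes at this exposure and at 48 h. The 3′ to 5′ signal ratio of the Gapdh control probe sets, which rises when RNA is degraded or labelled incompletely, was 1.53, 1.74 and 1.54 in Tnfr+/+ and 1.12, 1.03 and 1.22 in Tnfr-/-. The beta-actin ratio was 1.47, 1.95 and 1.31 against 1.10, 1.01 and 1.16. At 48 h the Gapdh ratios were 1.30 to 1.33 against 1.01 to 1.13 and the actin ratios 1.13 to 1.29 against 1.03 to 1.10, and at 72 h the actin ratios were 1.10 to 1.18 against 1.02 to 1.09. None of these overlapped between the genotypes, and results are given also from fits in which a ratio was a covariate.

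**Figure D1:**
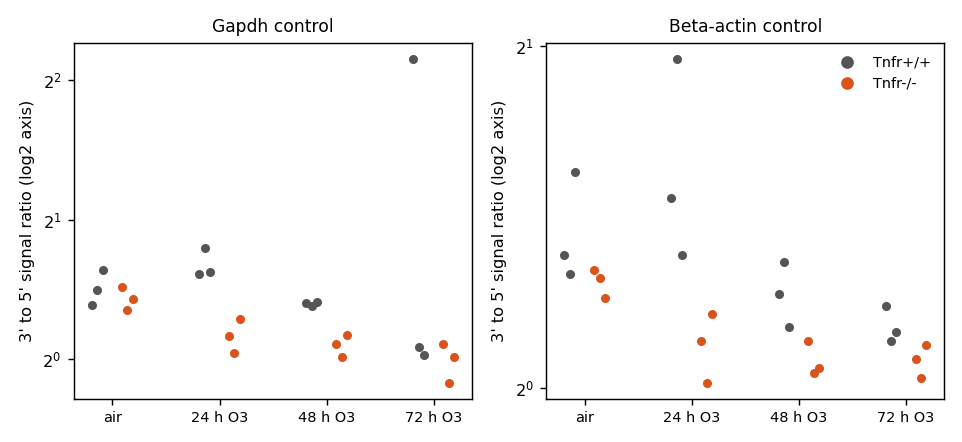
Ratio of 3′ to 5′ signal of the Gapdh (left) and beta-actin (right) control probe sets on each of the 24 arrays (points), on log2 axes, by exposure and genotype. At 24 h O3 the Tnfr+/+ Gapdh ratios were 1.53 to 1.74 and the Tnfr-/- ratios 1.03 to 1.22, the genotypes were also apart at 48 h and, for actin, at 72 h, and 1 Tnfr+/+ array at 72 h O3 stood apart at 4.45.

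The targeted receptors were read first. Tnfrsf1b signals were 390, 449 and 359.8 in Tnfr+/+ and 227, 235 and 266 in Tnfr-/-, a log2 difference of -0.72 (SE 0.16, limma adjusted p = 0.0409), and the groups did not overlap. A second Tnfrsf1b probe set read 259, 249.5 and 157 against 207, 222 and 176, with overlapping groups (log2 difference -0.11, adjusted p = 0.912). Tnfrsf1a signals were 2074, 2060 and 2414 against 2062, 1664 and 2249, which overlapped (log2 difference -0.14, adjusted p = 0.833). Whether these probe sets lie within the disrupted parts of the genes is not given in the sources used here, so they do not check the labels. Of the other TNF ligands, receptors and adaptors, Cflar, which encodes the caspase-8 inhibitor c-FLIP, fell (1225, 1358 and 1245 against 713, 841 and 841; log2 difference -0.68, adjusted p = 0.00753), and Ltb, which encodes lymphotoxin beta, rose by 1.17 (adjusted p = 0.0428). In all, 1 of the 19 measured members of this list rose (Ltb), 2 fell (Cflar and the disrupted Tnfrsf1b) and 16 did not pass the test. Among all genes 0.560% passed as higher and 0.492% as lower. Tnf itself was dim in both genotypes (32.3, 22.5 and 66.98 against 22.99, 38.4 and 22.4).

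Of 20537 probe sets tested, 206 were called at an adjusted p under 0.05 (1.00%), 120 higher and 86 lower in Tnfr-/-. By gene, each read from its brightest probe set, 65 of 11597 were higher (0.560%) and 57 were lower (0.492%), and a further 48 genes were called only through another of their probe sets. The signals of all 122 called genes were without overlap between the genotypes. Over all genes, every Tnfr-/- value lay above every Tnfr+/+ value in 10.8% and below in 12.1%. At an unadjusted limma p under 0.05, 5.79% of all genes were higher and 7.39% lower, the shares against which the unadjusted counts of lists are to be read. Differences of at least 2-fold were found in 32 of the genes that rose and 21 of those that fell, whereas the median log2 difference of all genes was -0.03. In whole lung RNA, fewer cells of a type and less RNA per cell cannot be told apart. The number of calls depended on the 18 other arrays and on the control ratios: 28 probe sets were called from the 6 arrays alone, 12 with the actin ratio as a covariate, and 5 with the mean of both ratios as a covariate and the outlying 72 h array left out. Leaving out 1 array gave 85, 84 and 113 calls without Tnfr+/+ replicate 1, 2 or 3, and 48, 63 and 147 without Tnfr-/- replicate 1, 2 or 3. The calls on 19 genes held without each of the 6 arrays in turn, among them Pttg1, Egr1, Hsph1, Ccn1, Chordc1, Mertk, Tnfrsf13b, Klf15, Coro1a, Zbtb16, Dnaja1 and Pdk4. Of these named genes only Pttg1 and Egr1 kept their call with the actin ratio as a covariate. Rab6b, Dbp, Tmod1 and AA545190, also among the 19, kept it too. Among other genes named in these results, Fos, Tnfrsf1b, Pou2af1, Cd2, Ptpn6, Ptprcap and Sprr1a lost their call whichever of the 6 arrays was left out. The same held for Herpud1, Npr3, P4ha1, Plod2, Thbd, Nr1d1 and Prdx4.

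**Figure D2:**
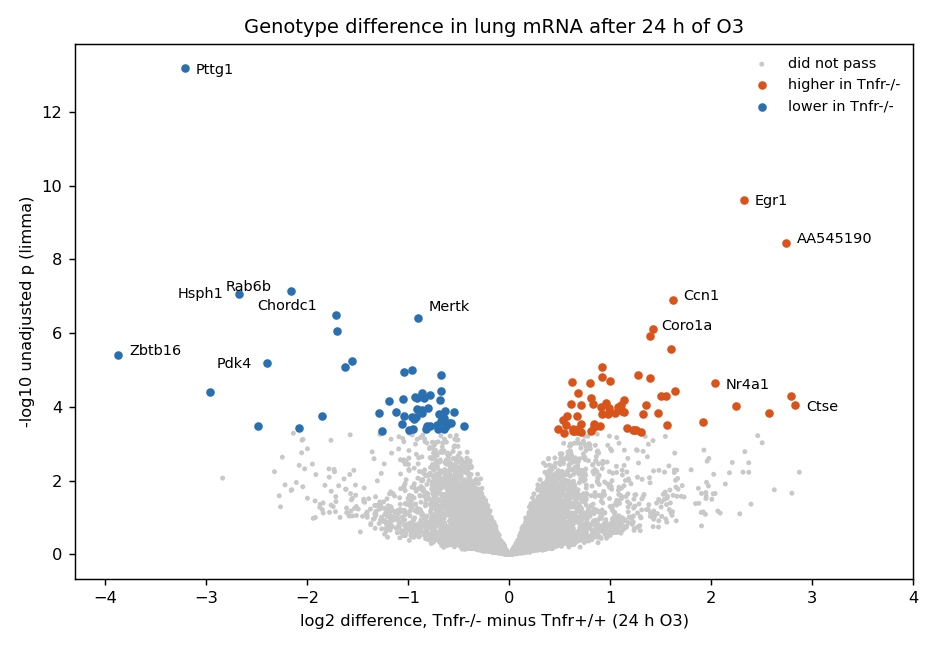
Log2 difference of Tnfr-/- minus Tnfr+/+ at 24 h O3 (x axis) against -log10 of the unadjusted limma p (y axis) for 11597 genes (points), with the 65 genes called higher in orange and the 57 called lower in blue. Pttg1 had the smallest p among genes that fell and Egr1 among genes that rose.

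Immediate early genes, whose transcription is switched on within minutes of a stimulus without new protein synthesis, rose in Tnfr-/- lungs. Egr1, a zinc finger transcription factor, read 1146, 1051 and 1009 in Tnfr+/+ and 5103, 5703 and 5248 in Tnfr-/-, a 5.01-fold difference (log2 2.33, SE 0.19, adjusted p = 1.68e-06). Nr4a1, an orphan nuclear receptor, read 1016, 1324 and 875 against 3239, 5279 and 4703 (4.09-fold, adjusted p = 0.0104). All 3 knockout lungs lay above all wild-type lungs for both genes. Ccn1, a matricellular protein, read 1785, 1893 and 1854 against 5489, 6459 and 5112 (3.07-fold, adjusted p = 0.000323), and a second probe set of the gene gave a log2 difference of 1.61. Fos, the partner of Jun proteins in the transcription factor AP-1, read 1542, 1262 and 1586 against 4926, 3800 and 4215 (2.95-fold, adjusted p = 0.0409). The AP-1 subunit Junb (log2 difference 1.14), the growth regulator Myc (1.11), the apoptosis regulator Ier3 (0.95) and the mRNA-destabilizing protein Zfp36 (0.63) rose as well, with adjusted p-values of 0.0259, 0.0207, 0.0205 and 0.0472.

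Of the 34 immediate early genes measured, 8 rose, none fell and 26 did not pass the test, against 0.560% of all genes higher (14 higher and 0 lower at a limma p under 0.05 before adjustment, against 5.79% and 7.39% of all genes). The median log2 difference of the list was 0.34 against -0.03 over all genes. Egr1, Nr4a1, Ccn1 and Fos are among the genes the study itself lists from these samples, so they are not independent evidence of the direction. This list and all others used here were written with earlier results of these data known. Their counts beside the shares of all genes are therefore not independent evidence either. Ier2 (log2 difference 1.00, adjusted p = 0.0799) and Egr2 (0.99, 0.0556) lay above without overlap but missed the threshold. Other members of the same families showed small differences, namely Jund at 0.07 and Fosb at 0.08. Probe sets disagreed for Klf6, whose brightest gave 0.00 and another 1.07 (adjusted p = 0.0205), and Btg2 was called only through a dimmer probe set (1.03, 0.0139). The list's median was 0.10 in air, 0.07 at 48 h and -0.15 at 72 h. With the actin ratio as a covariate Egr1 alone of the list was called and the median was 0.29, and 3 to 7 members were called when 1 array was left out.

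Stretches of these genes' promoters are shown because cAMP-responsive and serum-responsive elements near the start sites are the textbook route to their induction. The full cAMP response element TGACGTCA, searched on both strands of the 300-base RefSeq promoter windows (250 bases before and 50 after the start, GRCm38.p6), was in none of the 6 called immediate early genes with a window, against 3.07% of 9257 measured genes. The shorter TGACG, which is part of it and was searched after that result, was in 4 of the 6, namely Fos, Nr4a1, Ccn1 and Junb, in 17 of 26 members of the whole list (65.4%) and in 32.3% of measured genes. TGACG was not particular to genes that rose. It was in 31.4% of all genes called higher. It was also in 13 of 23 members (56.5%) of the list of heat shock proteins and co-chaperones described below, which fell. A CArG box, the core of the serum response element, was in Zfp36, in 3 of 26 list members (11.5%) and in 1.74% of measured genes. Capitals mark the short element, read on either strand, or the CArG box. Each stretch lies before the start and reads 5′ to 3′ on the gene's strand.
Fos, chr12:85473741-85473848, plus strand: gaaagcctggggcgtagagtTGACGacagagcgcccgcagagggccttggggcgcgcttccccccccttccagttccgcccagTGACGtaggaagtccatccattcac
Nr4a1, chr15:101266596-101266830, plus strand: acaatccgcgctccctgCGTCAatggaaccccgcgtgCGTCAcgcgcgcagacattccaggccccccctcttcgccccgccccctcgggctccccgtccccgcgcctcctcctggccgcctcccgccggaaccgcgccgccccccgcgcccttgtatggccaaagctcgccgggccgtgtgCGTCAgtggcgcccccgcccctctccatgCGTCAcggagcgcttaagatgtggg
Ccn1, chr3:145650019-145650063, minus strand: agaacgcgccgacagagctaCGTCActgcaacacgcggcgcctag
Junb, chr8:84978830-84978874, minus strand: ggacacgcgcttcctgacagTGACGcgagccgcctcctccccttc
Zfp36, chr7:28379257-28379306, minus strand: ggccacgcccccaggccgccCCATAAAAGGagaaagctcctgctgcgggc

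Nr4a1 held 4 copies of the short element and Fos held 2, with 1 each in Ccn1 and Junb. A match of these letters is a description of the sequence and not a measure of binding.

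Heat shock proteins and their co-chaperones, which fold and refold proteins under stress, fell in Tnfr-/- lungs. Hsph1, the HSP110 exchange factor for HSP70, read 5703, 7234 and 3637 in Tnfr+/+ and 606, 926 and 1026 in Tnfr-/-, a 6.39-fold difference (log2 -2.68, SE 0.32, adjusted p = 0.000258). Chordc1, an HSP90 co-chaperone, read 2308, 2449 and 1593 against 525, 663 and 735 (3.28-fold, adjusted p = 0.000551). Dnaja1, an HSP40, read 7708, 7551 and 5112 against 2018, 2436 and 2349 (2.95-fold, adjusted p = 0.00435). Wild-type replicate 3 was the lowest of its group for all 3 genes but remained above every knockout lung. The fall extended to the constitutive HSP70 Hspa8 (log2 difference -1.04), the inducible HSP90 Hsp90aa1 (-0.80), the HSP110 relative Hspa4l (-1.13), the HSP90 activator Ahsa1 (-0.78) and the calcyclin-binding protein Cacybp (-1.06), with adjusted p-values between 0.0222 and 0.0409. Over the alternative fits the Hspa8 difference ranged from -1.23 to -0.016, so its size is uncertain.

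Of the 28 measured members of this list, 8 fell, none rose and 20 did not pass, against 0.492% of all genes lower, and 20 were lower and 2 higher at an unadjusted limma p under 0.05 (7.39% and 5.79% of all genes). The median log2 difference was -0.79, and 23 members had every Tnfr-/- value below every Tnfr+/+ value, against 12.1% of all genes. Hsph1 and Dnaja1 are also on the study's own list. Large differences that missed the threshold were those of the inducible HSP70 gene Hspa1b (8947, 10670 and 5650 against 1431, 2703 and 2185; log2 -2.0, adjusted p = 0.079), which has a near-identical neighbouring copy, and of the HSP70 exchange factor Bag3 (-1.28, 0.0529). Mitochondrial Hspa9 (0.32) and the kinase co-chaperone Cdc37 (0.46) had values above wild type. The list's median was -0.37 in air, 0.19 at 48 h and -0.14 at 72 h. It was -0.85 with the actin ratio as a covariate, but limma then called no member, nor any from the 6 arrays alone, and 3 to 8 members were called when 1 array was left out.

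The binding site of heat shock factor is the heat shock element, inverted repeats of a short unit. In a strict form of 3 units, searched on both strands, it was in the windows of Chordc1 and Hsph1, 2 of the 6 called members with a window, in 5 of 23 list members (21.7%) and in 0.551% of measured genes. The other members with a match, Dnajb6, Hspd1 and Hspe1, were not called. Capitals mark the element in both genes.
Chordc1, chr9:18292257-18292291, plus strand: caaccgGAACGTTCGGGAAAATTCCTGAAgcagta
Hsph1, chr5:149636282-149636306, minus strand: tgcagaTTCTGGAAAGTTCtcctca

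The Chordc1 stretch crossed the start site and held 3 overlapping matches, and the Hsph1 stretch lay just after the start and held 1.

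**Figure D3:**
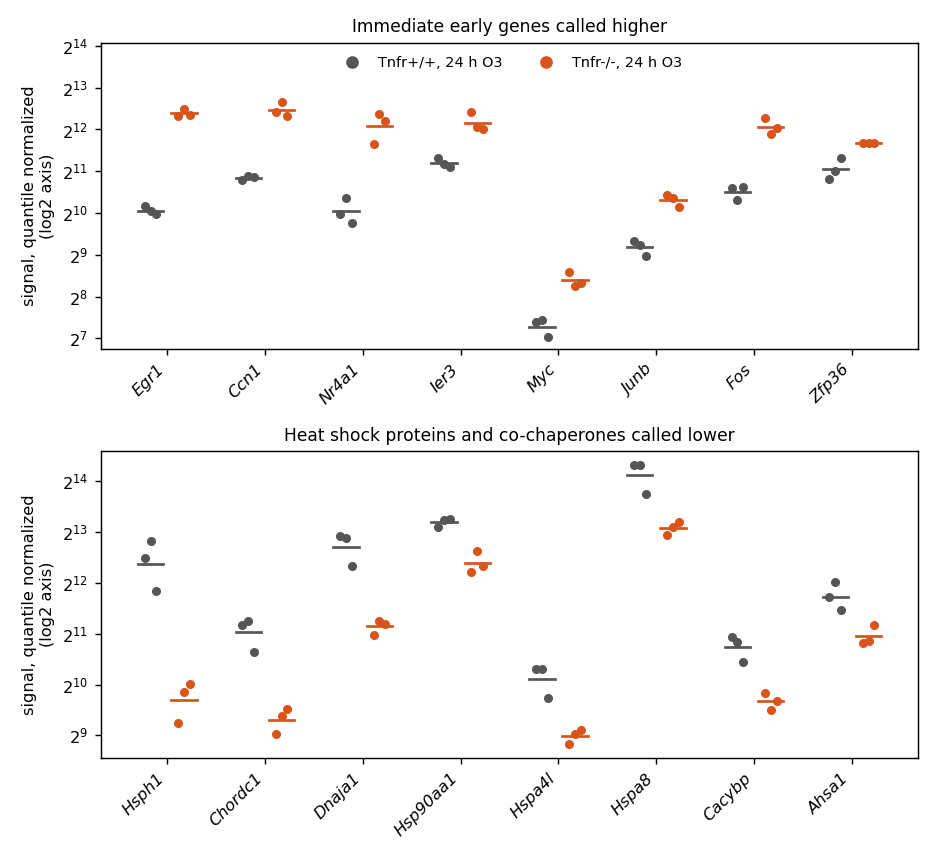
Quantile-normalized signals on log2 axes for the 8 immediate early genes called higher (top) and the 8 heat shock proteins and co-chaperones called lower (bottom) in Tnfr-/- lungs at 24 h O3. Points are single arrays (3 a genotype) and bars are geometric means, and the genotypes do not overlap for any gene shown.

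Targets of the unfolded protein response, the corresponding program of the endoplasmic reticulum, held 1 call. Of 25 measured members 1 fell and none rose, against 0.492% of all genes lower and 0.560% higher. At an unadjusted limma p under 0.05, 6 were lower and 0 higher (7.39% and 5.79% of all genes). The median log2 difference was -0.31, and a dimmer probe set of Hyou1 was called higher (1.07, adjusted p = 0.0458) where the brightest gave 0.03. The member that fell was Herpud1, which acts in degradation of misfolded proteins (2630, 2723 and 2782 against 1285, 1302 and 1654; log2 difference -0.95, adjusted p = 0.0445). Its call was lost whichever of the 6 arrays was left out. Edem3, a mannosidase of the same degradation route outside the list, fell as well (1167, 1315 and 1274 against 628, 648 and 643; -0.97, 0.00643). Edem3 was singled out after its values were seen. The chaperone Hspa5 read 11300, 12070 and 10520 against 9279, 6595 and 8029, without overlap but with an adjusted p of 0.217.

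Among genes that glucocorticoids induce in many tissues, 3 fell. Zbtb16, a transcriptional repressor also known as PLZF, read 743, 860.2 and 989 in Tnfr+/+ and 24.8, 89.9 and 90.7 in Tnfr-/-, a 14.6-fold difference (log2 -3.87, SE 0.60, adjusted p = 0.00309). The size of this difference is uncertain, since knockout signals were dim, the fold was 9.5 without Tnfr-/- replicate 1, and the mean of both probe sets gave 5.66-fold. The second probe set alone did not pass (log2 difference -1.13, adjusted p = 0.558). Pdk4, a kinase that shuts down pyruvate dehydrogenase, read 329, 215 and 360.2 against 45, 37.1 and 104 (5.27-fold, adjusted p = 0.00461). Neither gene overlapped between the genotypes, and knockout replicate 1 was the lowest for Zbtb16. Klf9, a Kruppel-like factor, read 4905, 5027 and 6066 against 2449, 2242 and 3070 (2.07-fold, adjusted p = 0.0187). Klf15, of the same factor family but outside the list, read 854, 931 and 1116 against 306, 256 and 323 (3.27-fold, adjusted p = 0.0012).

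Of 23 measured glucocorticoid-induced genes, 3 fell, none rose and 20 did not pass, against 0.492% of all genes lower. At an unadjusted limma p under 0.05, 12 were lower and 1 higher (7.39% and 5.79% of all genes). Zbtb16 and Pdk4 are on the study's own list. The median log2 difference was -0.59, against 0.00 in air. Within Tnfr+/+ the median difference of 24 h of O3 from air was 0.43, and within Tnfr-/- it was -0.13. Tsc22d3, which encodes the anti-inflammatory protein GILZ, read 5199, 4425 and 3813 against 1517, 1871 and 2705 (log2 -1.17, adjusted p = 0.0609), and Fkbp5, a co-chaperone of steroid receptors, read 1046, 1122 and 1527 against 519, 635 and 481 (-1.17, 0.0912). Sgk1 (0.18) and Dusp1 (0.22), also on the list, overlapped between the genotypes. Summed signals of 9 adipose genes (4307 to 5588 in Tnfr+/+, 2787 to 3634 in Tnfr-/-) and of 17 cardiac muscle genes (12190 to 15630 against 8086 to 11600) moved with these genes, with no gene of either list called by limma and 0 and 5 of them lower at p under 0.05 before adjustment, and their part was not tested. The cardiac list had a like median log2 difference in air (-0.55) and at 24 h (-0.56). No member of the glucocorticoid list was called by limma with the actin ratio as a covariate or from the 6 arrays alone, and 2 to 4 were called when 1 array was left out.

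B cell genes were higher in Tnfr-/- than in Tnfr+/+ lungs. Cd79a, a signalling chain of the B cell receptor, read 403, 441 and 418 in Tnfr+/+ and 1169, 1504 and 1069 in Tnfr-/- (2.94-fold, adjusted p = 0.0179). Its partner Cd79b read 459, 443 and 447 against 1090, 1370 and 957 (log2 1.33, adjusted p = 0.0264). Ms4a1, which encodes CD20, read 305, 348 and 368 against 859, 1152 and 593 (1.30, 0.0494). The groups did not overlap for any of these, and knockout replicate 2 was the highest each time. The low-affinity IgE receptor Fcer2a (log2 difference 1.35), the inhibitory receptor Cd22 (0.99), the surface protein Ly6d (1.05), the co-activator Pou2af1 (1.24) and Ltb (1.17) rose with them. Tnfrsf13b, which encodes the B cell receptor TACI but was not on the list, read 106, 139 and 124 against 319.9, 360.4 and 304 (1.42, 0.00114).

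Of 19 B cell genes measured, 8 rose, none fell and 11 did not pass against 0.560% of all genes higher (14 higher and 0 lower at an unadjusted limma p under 0.05, beside 5.79% and 7.39% of all genes), and the median log2 difference was 0.94. Cd79a and Cd79b are on the study's own list. The summed signal was 5108 to 6316 in Tnfr+/+ and 10200 to 11670 in Tnfr-/-. Ighm (log2 difference 0.42), Pax5 (-0.40) and Vpreb3 (-0.19) overlapped between the genotypes. The list's median was 0.10 in air, -0.13 at 48 h and -0.19 at 72 h. From air to 24 h of O3 the list's median difference was -0.33 within Tnfr+/+ and 0.40 within Tnfr-/-. With the actin ratio as a covariate the median was 1.04 and limma called no member, and none was called without Tnfr+/+ replicate 1 or without Tnfr-/- replicate 2.

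Other leukocytes gave fewer calls. Of 14 T cell genes, Cd2, an adhesion receptor, alone rose (94.8, 97.8 and 93.7 against 175, 329 and 193; adjusted p = 0.0458), and Cd3e and Cd8a overlapped. Among all genes 0.560% were called higher and 0.492% lower. Limma called none of 16 genes of NK and cytotoxic lymphocytes, whose median log2 difference was -0.32, beside -0.43 in air. At an unadjusted limma p under 0.05, 0 of these were higher and 3 lower (5.79% and 7.39% of all genes). None of 22 monocyte and macrophage genes and none of 17 neutrophil genes was called by limma, while an unadjusted p under 0.05 was reached by 3 and 3 that lay higher and 0 that lay lower, where 5.79% of all genes were higher. The summed monocyte and macrophage signal overlapped (38330 to 39050 against 38250 to 41860) and that of neutrophil genes did not (6280 to 7286 against 8116 to 11200). A sum is weighted towards bright genes, and the mean log2 level of members, relative to the 24-array mean, gave the reverse. Monocyte and macrophage genes lay at -0.172 to -0.043 against 0.083 to 0.28, without overlap. Neutrophil genes lay at -0.328 to 0.008 against 0.005 to 0.323, which overlapped. The median log2 differences were 0.25 and 0.09. Some called genes outside these lists, singled out after their values were seen, are known from blood cells. Coro1a, an actin regulator of blood cells, read 902, 686 and 919 against 2203, 2646 and 1784 (2.63-fold, adjusted p = 0.00142). The integrin subunit Itgb2 (log2 difference 0.84), the phosphatase Ptpn6 (0.85), the CD45-associated protein Ptprcap (0.84) and the oxidase subunit Ncf1 (1.5) were called as well.

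**Figure D4:**
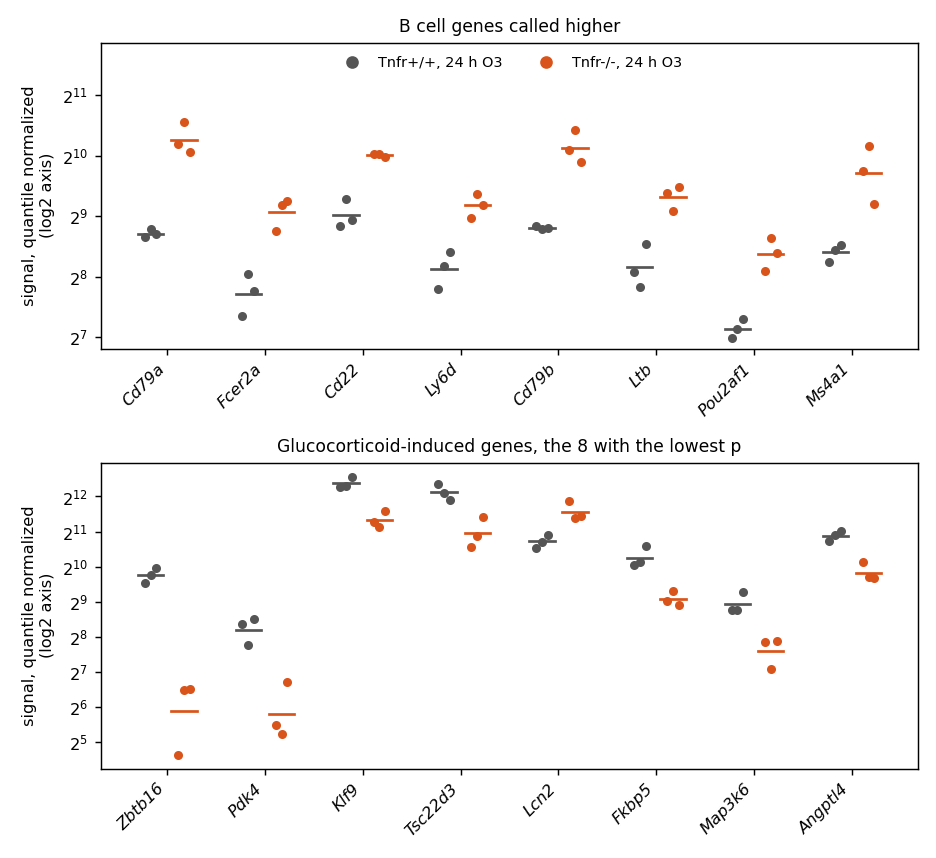
Quantile-normalized signals on log2 axes at 24 h O3 for the 8 B cell genes called higher in Tnfr-/- (top) and for the 8 glucocorticoid-induced genes of lowest p (bottom), of which Zbtb16, Pdk4 and Klf9 were called. Points are single arrays (3 a genotype) and bars are geometric means.

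Inflammatory mediators gave few calls. Over all genes 0.560% were called higher and 0.492% lower, and 5.79% and 7.39% were so at an unadjusted limma p under 0.05. Of 29 acute phase and inflammatory genes 2 rose and none fell, with 10 higher and 0 lower at an unadjusted limma p under 0.05 and a median log2 difference of 0.20. Lrg1, a secreted glycoprotein of the acute phase, read 2997, 2907 and 4094 against 9672, 7042 and 7455 (log2 1.28, adjusted p = 0.00753), and Il1b, the cytokine interleukin-1 beta, read 303, 348 and 265 against 508, 1118 and 522 (1.14, 0.0194). Il6 was dim, at 57.1, 79.3 and 54.02 against 118, 88.3 and 145, and did not pass (log2 difference 0.87, 95% interval 0.22 to 1.52, adjusted p = 0.199). Of 26 NF-kB subunits and targets Il1b alone was called, 7 were higher and 3 lower at an unadjusted limma p under 0.05, and the median was 0.15. The inhibitor gene Nfkbia (-0.25) and the adhesion molecule Icam1 (0.16) did not pass. The neutrophil chemoattractant Cxcl1 read 44.99, 49.7 and 56.3 against 148, 94.5 and 119, without overlap or a call (log2 1.24, adjusted p = 0.352). Limma called none of 38 chemokine and chemokine receptor genes (3 higher and 4 lower at p under 0.05 before adjustment), Ccl5 included (-0.49, 95% interval -0.95 to -0.02), and a dimmer probe set of Cxcl14 was called higher (1.38, adjusted p = 0.0222).

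Of 14 squamous and keratin injury genes 1 rose and none fell, and the median log2 difference was 0.07. Among all genes 0.560% were called higher and 0.492% lower. At an unadjusted limma p under 0.05 the shares of all genes were 5.79% higher and 7.39% lower. The gene was Sprr1a, a cornified envelope protein of injured epithelium, which read 444, 670.3 and 549 against 1417, 1221 and 1275 (log2 1.25, adjusted p = 0.0458). Slc26a4, the anion exchanger pendrin, read 246, 386 and 346 against 1157, 639 and 805 (1.39, 0.00825), and Ch25h, which makes 25-hydroxycholesterol, read 449, 606 and 451 against 1199, 913 and 1057 (1.08, 0.0222). None of the 3 genes overlapped between the genotypes. Fdps, an enzyme of isoprenoid synthesis, read 1181, 1125 and 1150 against 1955, 1991 and 2016 and did not pass (0.79, 0.37), and limma called none of 19 cholesterol synthesis genes (6 higher and 1 lower at p under 0.05 before adjustment), although other probe sets of Hmgcs1 were called higher (0.69 and 0.80). The chitinase-like Chil3 (0.63), the protease inhibitor Timp1 (0.71), the endocytic receptor Lrp2 (0.61), the alarmin Il33 (0.33, with the sign turned when a control ratio was a covariate) and the neutrophil protein S100a9 (349.8, 329 and 542 against 1031, 1978 and 479.8) did not pass either. Marker lists of alveolar type 1, alveolar type 2, club and ciliated cells held 12, 16, 13 and 10 measured genes. Their median log2 differences were -0.24, 0.11, -0.06 and -0.36. Limma called none of their genes (0, 2, 0 and 0 higher and 4, 0, 0 and 2 lower at p under 0.05 before adjustment).

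Other genes that fell stood outside the lists above. Mertk and Thbd among them were singled out after their values were seen. Of 27 matrix and repair genes 1 rose and 1 fell (median log2 difference -0.01), and limma called none of 24 endothelial genes (2 higher and 1 lower at p under 0.05 before adjustment). Among all genes 0.560% were called higher and 0.492% lower, and 5.79% and 7.39% were so before adjustment. Npr3, the clearance receptor of natriuretic peptides, read 2027, 1836 and 1368 against 549, 349 and 561 (log2 -1.86, adjusted p = 0.0283). Its other probe sets gave -1.09 and -1.32 and did not pass (limma adjusted p = 0.214 and 0.0689). In air the brightest Npr3 probe set differed by -1.21 (limma adjusted p = 0.414). The call on Npr3 was lost whichever of the 6 arrays was left out. Mertk, a receptor for apoptotic cells, read 971, 936 and 940.4 against 536, 456 and 534 (-0.91, SE 0.12, adjusted p = 0.000626). Signals of Mertk lay in a narrow range within each genotype. The matrix protease Adamts15 (-1.29), the collagen hydroxylases P4ha1 (-1.0) and Plod2 (-0.87), the nuclear matrix protein Banp (-1.63), the SOCS box protein Spsb1 (-1.19) and the anticoagulant receptor thrombomodulin, Thbd (-0.65), were also called, with adjusted p-values from 0.00548 to 0.0452. Probe sets of Spsb1 disagreed, since 1 dimmer probe set gave -1.78 (limma adjusted p = 0.0259) and another 0.007 (0.992).

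The genotypes differed at other exposures too, where 0.0876% of probe sets were called in air, 0.166% at 48 h and 0.161% at 72 h. Of the 122 genes called at 24 h, 113 were called at no other exposure by their brightest probe set and 9 were. Of the 113, Vamp3, a vesicle fusion protein gene near Tnfrsf1b, was called at other exposures through another probe set, which read 3391, 4058 and 3492 against 617, 617 and 659 at 24 h (log2 -2.53, adjusted p = 6.76e-10) and differed by -2.42 in air (adjusted p = 1.51e-09). It had the smallest adjusted p of all probe sets at 24 h, whereas the brightest probe set of Vamp3 gave -0.68 and another 0.04. Pttg1, which encodes the anaphase inhibitor securin, read 6525, 6706 and 6475 in Tnfr+/+ and 753, 721 and 654 in Tnfr-/- (9.27-fold, adjusted p = 6.8e-10), beside log2 differences of -3.21 at 24 h and -3.04 in air. Rab6b, a GTPase of Golgi traffic, differed by -2.17 at 24 h and -1.92 in air. Nnt, a mitochondrial transhydrogenase gene of which C57BL/6J mice carry a partly deleted copy, differed by 0.80 and 1.23. Pttg1, Rab6b, Nnt, Tnfrsf1b and A430005L14Rik were called at all 4 exposures. Of the 399 measured genes nearest to the disrupted loci, 7 were called at 24 h against 1.05% of all genes, 2 of 200 around Tnfrsf1a (1.00%) and 5 of 199 around Tnfrsf1b (2.51%), the first a share near that of all genes and the second including A430005L14Rik (0.92 at 24 h, 0.88 in air).

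The clock output gene Dbp (156, 204 and 149 against 498, 471 and 561; log2 1.60, adjusted p = 0.00225) and the thyrotropin subunit gene Tshb (1.65) rose at 24 h and were called also in air and at 72 h. Nr1d1, a repressor of the clock loop, rose at 24 h (439, 577 and 565 against 1103, 1234 and 1068; 1.11, 0.025). Of 19 clock genes Dbp and Nr1d1 rose and none fell, with 3 higher and 6 lower at an unadjusted limma p under 0.05, and Arntl (-0.72) and Per2 (-1.09) had values below wild type without overlap or a call. Among all genes 0.560% were called higher, and 5.79% were higher and 7.39% lower at that unadjusted p. The time of day at which lungs were taken is not given in the sources used here. Ctse, which encodes cathepsin E, read 89.2, 89.1 and 129.6 against 550.2, 814 and 826 (log2 2.83, adjusted p = 0.0211) and was called at 48 h and 72 h, whereas its other probe set gave 0.08 at 24 h.

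Whether the genotype difference itself changed with exposure was tested as an interaction. Against air 0.00974% of probe sets were called, against 48 h 0.0195% and against 72 h 0.0292%. Egr1 was called in all 3, its log2 difference of 2.33 at 24 h standing beside 0.33 in air (1233, 948 and 1176 in Tnfr+/+ and 1559, 1255 and 1386 in Tnfr-/-), 0.30 at 48 h and 0.21 at 72 h. Within Tnfr-/- Egr1 rose by 1.94 from air to 24 h of O3 (limma adjusted p = 2.39e-05), and within Tnfr+/+ the difference was -0.06 (adjusted p = 0.999). The dim transcript AA545190, whose function is not named here, was also called in all 3 and read 7.80, 18.5 and 8.18 against 75.97, 68.4 and 68.2 at 24 h (adjusted p = 1.47e-05). Wild-type signals that low are not shown to be above background, so no fold is given. Hsph1 and Chordc1 were called against 48 h, and Ccn1, Mertk and Pttg1 against 72 h. For Zbtb16 (against air, adjusted p = 0.636), Fos (0.601) and Cd79a (0.575) a change of the genotype difference from air was not shown.

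**Figure D5:**
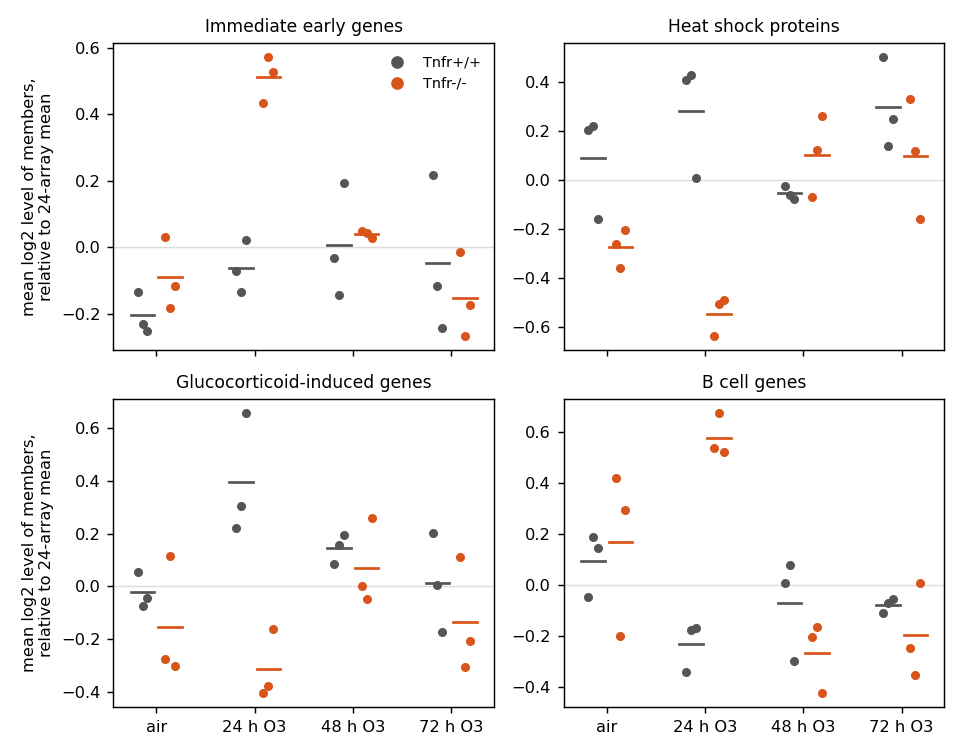
Mean log2 level of the measured members of 4 gene lists on each of the 24 arrays, relative to the mean over all arrays, by exposure and genotype (points, single arrays, and bars, means of 3). At 24 h O3 the Tnfr-/- arrays lie at 0.43 to 0.57 for immediate early genes and at -0.64 to -0.49 for heat shock proteins, apart from the Tnfr+/+ arrays of that exposure.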

How the data were processed

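Per the labels' processing notes, the authors made the deposited values with Affymetrix Expression Console and MAS5: they are linear intensity values of MOE430A arrays, whose trimmed mean was 501.2 on each of the 24 arrays. Of 22644 probe sets, 64 controls were left out, 20338 had 1 gene symbol, 691 had several and 1551 were not listed, and 20309 were matched by Entrez identifier. Intensities were quantile normalized, floored at 1 and taken to log2, and 20537 probe sets that reached the 20th percentile of 1 array or more were kept. A linear model with 1 mean for each of 8 groups was fitted with limma 3.58.1 in R 4.3.3 (residual df 16, prior df 2.38, Benjamini-Hochberg adjustment), so that all groups shared 1 spread, after testing on simulated data. Each gene was represented by its kept probe set of highest mean. Genes named were drawn from the 15 largest rises and 15 largest falls that did not overlap, genes the study lists, and from up to 8 called and 3 other members of 47 gene lists (903 of 1046 members measured). Others, Edem3, Mertk and Thbd among them, were chosen after their values were seen. Members and lists were chosen with earlier results of these data known. Alternatives were normalization, filters, floor, test, replicate block, leaving out arrays and control ratios as covariates. Replicates were separate mice, and their number limits the precision. No scan date or batch is given in the sources used here.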

Additional observations from a re-analysis of the deposited data

Results flagged for a closer look

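The genotype difference at 24 h O3 differed from that at another exposure for 8 probe sets, by the interaction term of the limma fit (log2 difference of differences). Against air these were AA545190 (3.22, adjusted p = 0.0013) and Egr1 (2.00, adjusted p = 0.00548). Against 48 h they were AA545190 (3.11), Egr1 (2.03), Hsph1 (-3.05, adjusted p = 0.0129) and Chordc1 (-1.98, adjusted p = 0.0255). Against 72 h they were AA545190 (3.52), Egr1 (2.11), Pttg1 (-1.83), Ccn1 (1.68), Mertk (-1.03) and a probe set with no single gene name here (-1.54). The wild-type signals of AA545190 at 24 h were 7.80 to 18.5, not shown to be above background, so the size of its differences is uncertain. Groups held 3 arrays each, too few to test for outlying samples.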

How the results depend on the processing

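The 206 calls at 24 h became 326 with a filter at the median, 359 without the outlying Tnfr+/+ 72 h array, 428 with array weights, 28 from the 6 arrays alone, 2951 with the methods' t-test at an unadjusted p under 0.05 and 8 after Benjamini-Hochberg, 2885 at an unadjusted limma p under 0.05, and 48 to 147 with 1 array left out. With control ratios as covariates, chosen after seeing the data, 12 (actin) and 5 (mean of both) remained in number, and 8 and 3 of the 122 genes kept their call. The interaction with air had 2 calls, and 1 with the median filter, 4 without the 72 h array, 4 with array weights, 1278 unadjusted and 2 to 4 with 1 array left out. That with 48 h had 4, and 8 with the median filter, 1229 unadjusted, 2 with the actin covariate and 2 to 5 with 1 array left out. That with 72 h had 6, and 21 with the median filter, 1774 unadjusted, 2 with the mean ratio covariate and 3 to 11 with 1 array left out. Fewer samples or tested probe sets enter some of these fits, and otherwise the cause was not tested. The replicate numbers are only shared (correlations of deviations 0.083, -0.037 and -0.035), and a replicate block gave 192 calls, and 2, 3 and 5 for the interactions. The difference of Il33 turned to -0.050 and -0.023 with the covariates, and that of Prdx4 to -0.047 as the mean of its probe sets.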
